A study of Drosophila melanogaster with 12 samples.

Results

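The genes described here are transcribed mainly in the male reproductive tract of Drosophila: 16 accessory gland genes, the ejaculatory bulb gene EbpII and 23 testis genes, 40 names in all. A name was measured where a probe set of the array carried it as its only gene symbol. That held for 35 of the 40 names, 13 of the gland, the bulb gene and 21 of the testis, with 37 of the 13966 fly probe sets. The genes bol and mia had 2 probe sets each, and the brighter one was counted. Acp98AB, Mst57Db and loopin-1 had no probe set under their names, and Acp33A and ProtA had only a probe set shared with another gene. No probe, transcript or promoter sequence was used here.

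The study measured RNA from whole flies on Affymetrix arrays over the hours after a return to yeast, the protein source of fly food. Larvae ate standard food up to early in their last instar, then food without yeast, and 4 days after emergence the adults were given yeast again. The data are 12 arrays, 1 for each of hours 1 to 12, all of this 1 treatment. Flies kept without yeast and arrays from before hour 1 were not analysed here. The labels give no sex, strain or number of flies per array, so nothing says that an array is a separate culture, and p-values measure only the spread of these arrays round a line over hours.

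The paired accessory glands secrete most of the seminal fluid, whose proteins enter the female with the sperm and alter her egg laying, her readiness to mate again and the storage of sperm. The ejaculatory bulb adds the proteins of the mating plug. In the testis, spermatocytes transcribe most of the genes that spermatids will need. The testis-specific TAF proteins and the meiotic arrest genes switch that programme on, and many of the transcripts are kept untranslated until the sperm tail and the compact sperm nucleus are built.

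Most of the measurable gland genes, and 8 of the 17 measurable testis genes, were higher at the listed hours than at any other hour. The listed hours are 2, 3, 5, 9 and 10, and the other hours are 1, 4, 6, 7, 8, 11 and 12. The listed hours had been picked for high male gland transcripts on these same arrays, so the gap in level is a description, with no test. Intensities under the 20th percentile of the table, 57.2, were treated as that floor before log2 was taken, and 25 of the 35 genes lay above the floor on at least 3 arrays: 7 gland genes, EbpII and 17 testis genes. Of these 25, 15 had every listed hour above every other hour, namely 6 gland genes, EbpII and 8 testis genes, and 0 had every listed hour below. Among all 11586 probe sets that met the same filter the shares were 1.74% above and 0.302% below. The median difference in mean log2 intensity, listed minus other hours, was 1.21 over the 7 gland genes and 0.26 over the 17 testis genes, against 0.01 over all probe sets. These medians depend on the floor: with it at the 10th percentile of the table they were 1.01 and 0.52. Genes that were high at the listed hours met the filter through those hours, so these counts describe the measured genes only. In whole-fly RNA, fewer cells of a type and less RNA per cell cannot be told apart. The labels give no sex, so the share of males among the flies of each array is not known either.

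**Figure D1:**
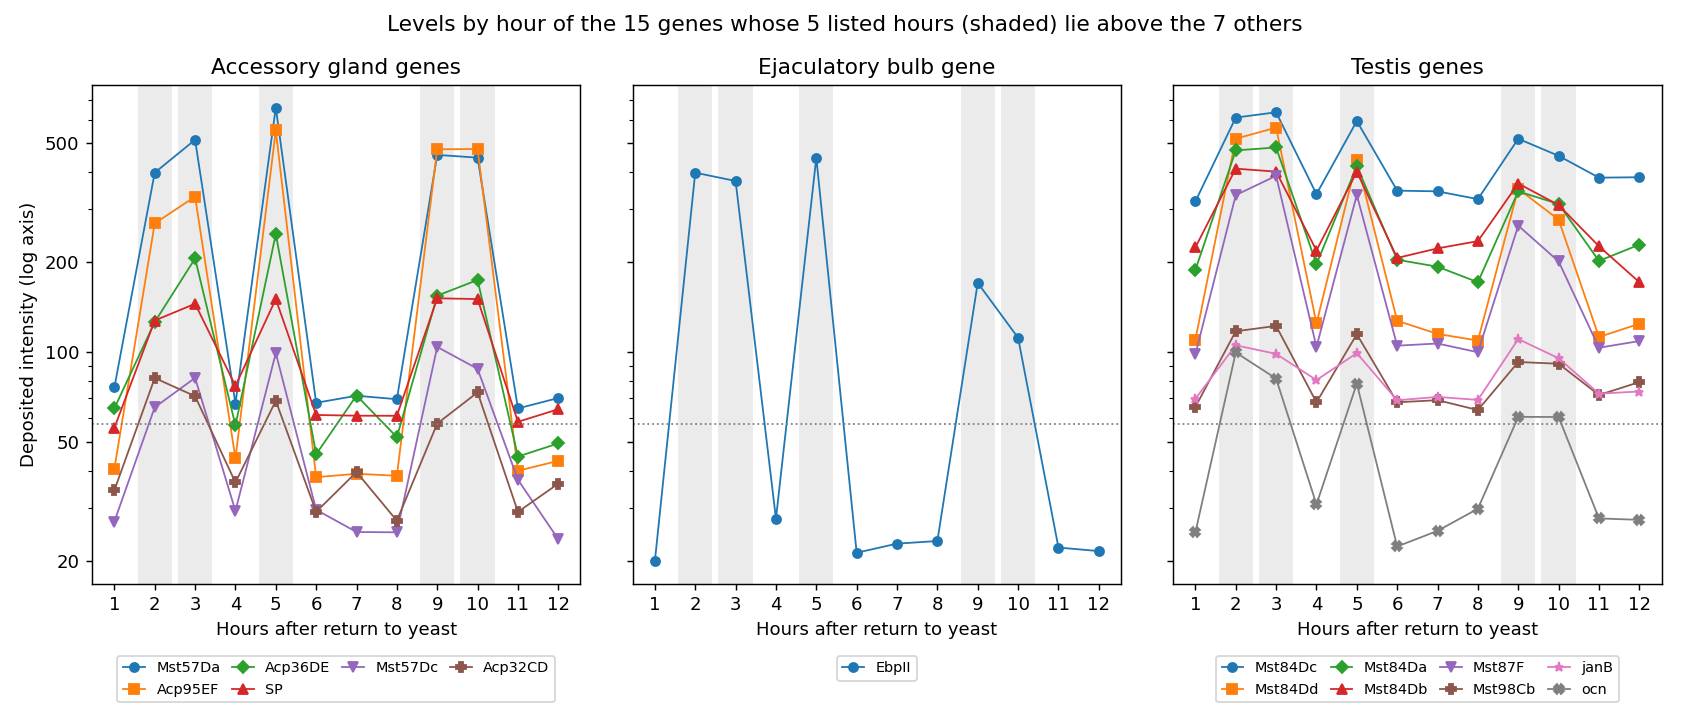
Deposited intensity on a log axis against hours after return to yeast, 1 array an hour, for the 6 gland genes, EbpII and the 8 testis genes whose listed hours (shaded) lie above all other hours. The dotted line is the floor of 57.2. Gland genes and testis genes are high on the same 5 arrays, and the testis genes and EbpII are lower at hours 9 and 10 than at hours 2, 3 and 5, apart from janB.

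Among the gland genes, the seminal fluid genes Acp95EF and Mst57Da stood furthest apart. Acp95EF read 269.5, 331, 552, 477 and 478 over the listed hours in order of time, and from 38.0 to 44.0 over the other hours. All 7 other hours were under the floor, so the difference is a bound: at least 2.83 on the log2 scale, or at least 7.12-fold higher. Mst57Da, a male-specific transcript of the gland, read 399, 514, 658, 457 and 447, against 64.7 to 76.1 with a median of 69.4. It was above the floor on all 12 arrays, and its difference was 2.81, or 7.03-fold. Among the listed hours both genes were lowest at hour 2 and highest at hour 5, and neither overlapped with the other hours.

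Acp36DE encodes a seminal glycoprotein needed for sperm storage. Its intensities were 126, 206, 248, 154 and 174 at the listed hours and 44.6 to 71.5, median 51.8, at the other hours, of which 2 were above the floor. The log2 difference was at least 1.56. SP, the sex peptide that turns mated females towards egg laying and away from mating, read 127, 145, 150.3, 151 and 150.3, against 55.7 to 77.0 with a median of 61.1 and 1 array under the floor, a difference of at least 1.21. SP was thus nearly level from hour 3 to hour 10 of the listed hours, while Acp36DE was much higher at hour 5 than at hour 2. Neither gene overlapped.

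Mst57Dc and Acp32CD, a second Mst57D gland transcript and another seminal fluid gene, were dimmer. Mst57Dc read 65.2, 81.9, 99.1, 103.9 and 87.8 at the listed hours and 23.6 to 37.3, median 27.0, at the others, a difference of at least 0.59. Acp32CD read 81.8, 71.1, 68.6, 57.5 and 73.2, against 27.2 to 39.6 with a median of 34.4, a difference of at least 0.29. The hour 9 value of Acp32CD was just above the floor. Acp62F, a protease inhibitor of the seminal fluid, was the gland gene that overlapped: it ran from 90.8 to 119 at the listed hours and from 84.6 to 97.6 at the others, a difference of 0.18.

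The other 6 gland genes with a probe set of their own did not meet the filter. They were Acp26Aa (ovulin, which stimulates ovulation), Acp26Ab, its neighbour on chromosome arm 2L, Acp29AB, a lectin needed for sperm storage, Acp53Ea, Acp63F and the serpin Acp76A. In the intensities as deposited, 5 of the 6 also had every listed hour above every other hour, all but Acp29AB, at levels too dim to give a fold. Of all 13966 fly probe sets, 1.97% had that separation as deposited. Acp26Ab was above the floor at hours 3 and 9 only, with 52.8, 67.1, 45.0, 103.8 and 48.7 at the listed hours and at most 36.7 at the other hours. The probe set that Acp33A shares with CG15841 ran from 20.2 to 30.8 at the listed hours and from 8.49 to 14.6 at the others, all under the floor.

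EbpII, an ejaculatory bulb protein, read 398.5, 374, 447, 170.3 and 112 at hours 2, 3, 5, 9 and 10. It lay between 19.9 and 27.6, with a median of 22.1, at the other hours. The difference was at least 2.20, or at least 4.60-fold higher. Hours 9 and 10 were well under hours 2, 3 and 5 and still above every other hour.

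The testis genes were grouped by role after their values were seen. Of 11 sperm structure and spermatid genes that met the filter, 8 had no overlap between listed and other hours, with log2 differences over the 11 from 0.04 to 1.83. Among the 8, the Mst84D genes, Mst87F and Mst98Cb belong to the same protein family, and their relative Mst98Ca overlapped. Of 5 spermatocyte regulators that met it, 0 were free of overlap, with differences from 0.04 to 0.26. Among all probe sets 1.74% had every listed hour above and 0.302% every listed hour below, so 0 of 5 is close to these shares. The testis tubulin betaTub85D, which forms the spindle and the sperm tail axoneme, also overlapped, with 102 to 129 at the listed hours and 81.4 to 128 at the others.

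The Mst84D genes and Mst87F encode related cysteine-rich proteins of the sperm tail, and the 4 Mst84D genes lie next to each other on arm 3R. Mst84Dd read 518, 564, 438, 352 and 277 at the listed hours and 109 to 127, median 115, at the others, a log2 difference of 1.83, or 3.55-fold. Mst87F read 335, 389, 336, 265 and 201, against 98.1 to 109 with a median of 104, a difference of 1.52, or 2.87-fold. In both the highest array was hour 3 and the lowest listed array was hour 10, and no listed hour came near the other hours.

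The other members of the Mst84D cluster had smaller differences and were well above the floor at every hour. Mst84Da read 473, 484, 419, 345 and 313, against 171 to 229, a difference of 1.03. Mst84Db read 411, 402, 401, 367 and 311, against 171 to 235, a difference of 0.82. Mst84Dc read 609.5, 635, 594, 518 and 454, against 319 to 385, a difference of 0.68. Each of them kept a signal at the other hours, which these data do not assign to a tissue, and each was lowest among the listed hours at hour 10.

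Mst98Cb, a further member of the same protein family, read 117, 122, 115, 92.5 and 91.3 at the listed hours and 63.9 to 79.2, median 67.8, at the others, a difference of 0.63. Its neighbour and relative Mst98Ca did not follow it: it ran from 493 to 632 at the listed hours and from 479.6 to 696 at the others, a difference of 0.04. The testis genes janB and ocn, which are neighbours in the janus-ocnus cluster, also had no overlap. For janB the values were 105, 98.5, 99.1, 110.4 and 95.3 against 68.9 to 80.5, a difference of 0.50. For ocn they were 99.6, 81.4, 78.3, 60.6 and 60.5 against 22.3 to 30.8, a difference of at least 0.38. Hour 2 was the highest array of ocn and hour 9 that of janB.

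Further genes of the sperm tail and nucleus lay near or under the floor. The sperm tail gene dj read 73.4, 79.3, 62.4, 38.5 and 40.1 at the listed hours and 10.8 to 13.4 at the others. Mst77F, which encodes a histone-like protein of the sperm nucleus, read 62.9, 72.7, 70.7, 41.2 and 44.5, against 25.1 to 35.6. Neither overlapped as deposited, but hours 9 and 10 were under the floor for both. ProtB, a protamine-like protein gene, was at most 11.7 on every array in its own probe set. The probe set it shares with ProtA read 118, 125, 116, 88.2 and 84.6 at the listed hours and 47.2 to 64.3 at the others. The dj relative djl and the mitochondrial fusion gene fzo were under the floor on all arrays, at no more than 31.7 and 44.1.

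The spermatocyte regulators stayed within the range of the other hours or just beyond it. The testis TAF genes mia, sa and nht ran from 86.0 to 103, 136 to 170.5 and 84.8 to 92.8 at the listed hours. At the other hours they ran from 72.1 to 93.4, 126 to 159 and 73.0 to 98.0. The meiotic arrest gene aly read 174 to 194 and 156 to 192. The remaining TAF gene, can, was under the floor on all arrays, at no more than 36.6. The RNA-binding protein gene bol, needed for spermatocytes to enter meiosis, read 532 to 729 at the listed hours and 457 to 783 at the others, a difference of 0.04. The second probe sets of mia and bol were under the floor on all 12 arrays.

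**Figure D2:**
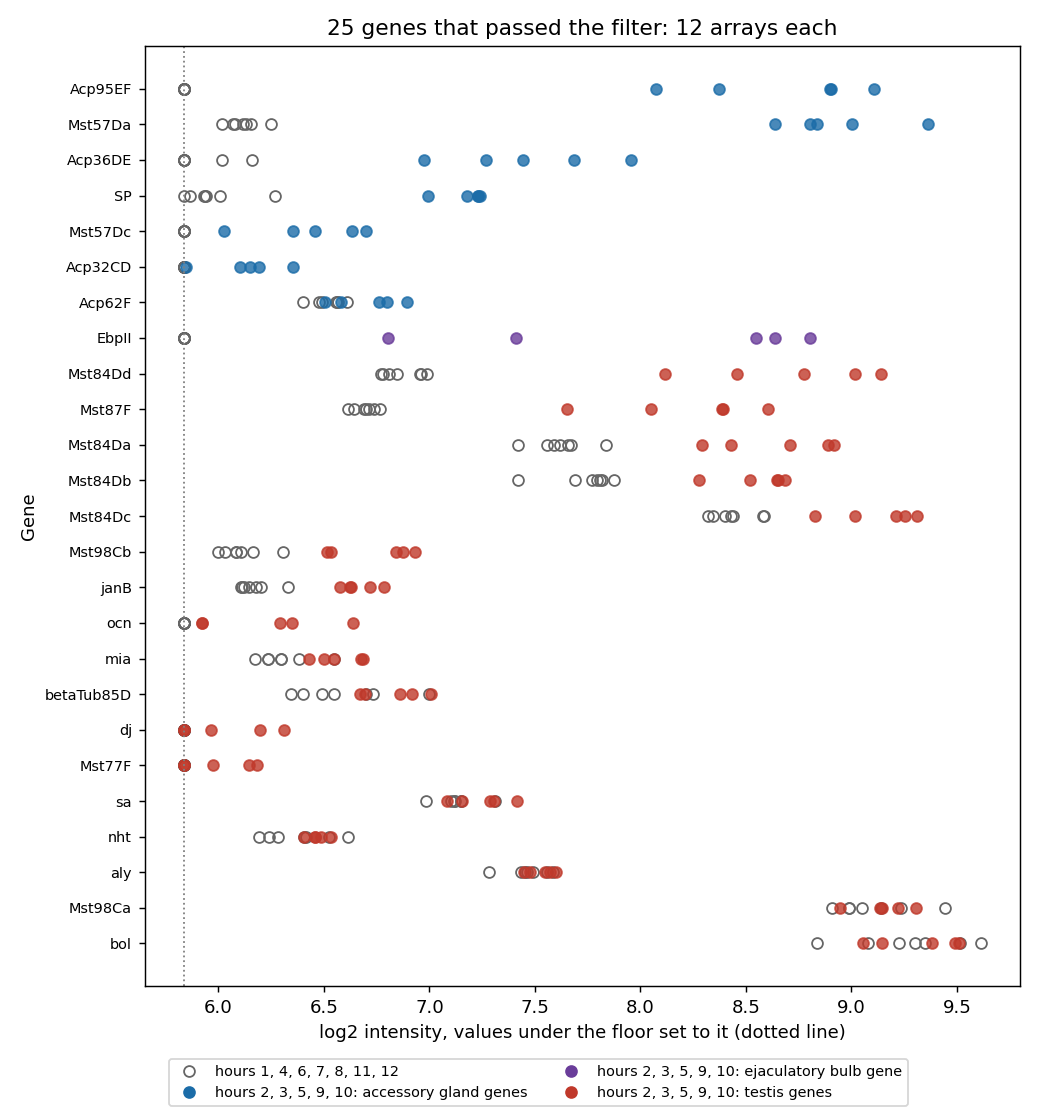
Log2 intensity of the 25 genes that met the filter, 1 point for each of the 12 arrays, with values under the floor set to it (dotted line). Filled points are the 5 listed hours (blue gland, purple bulb, red testis) and open points the 7 other hours. The filled points lie right of all open points in 15 genes, and mix with them in Acp62F and in 9 testis genes.

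Members held 7 of the 20 largest positive differences among the 11586 probe sets, with floored values at the floor: Acp95EF, Mst57Da, EbpII, Mst84Dd, Acp36DE, Mst87F and SP. The listed hours were picked for high male gland transcripts on these same arrays, so such genes rank high by that choice. The ranking of the 25 members is thus a description and no test. The largest difference was that of a probe set shared by Met75Ca and Met75Cb, picked out after its values were seen, at 597, 932, 806, 697 and 933 against 46.1 to 58.3.

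Hour 4 was often the highest of the other hours. It was so in 9 of the 22 members that did not overlap in the deposited intensities, 5 gland genes, EbpII and 3 testis genes. SP read 77.0 at hour 4 and at most 64.3 at the remaining other hours. Hour 4 was the highest other hour in 43.6% of all 275 probe sets with such a separation and in 22.8% of all 13966, so the members were close to the first of these shares.

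Across all 12 arrays, the linear change with hour was tested with limma over 11586 probe sets. Of the 25 members 0 rose and 1 fell, bol, while 8.44% of all probe sets rose and 4.97% fell. The fitted change of bol from hour 1 to hour 12 was -0.60 ± 0.11 (SE, limma adjusted p = 0.00371). Its intensity was 783 at hour 1, 731 at hour 8 and 457 at hour 12. The change of ocn had an unadjusted p under 0.05, as did those of bol and of 24.9% of all probe sets, and did not pass (-0.43, limma adjusted p = 0.193). The test sees a steady change only. In genes that differ between listed and other hours, that gap adds to the spread round the line. The SE was 1.21 for Acp95EF, 1.17 for Mst57Da and 0.95 for EbpII, so a missing call says little about their trend.

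Within the other hours, 3 gland and 14 testis genes were above the floor often enough to be tested. There bol fell, by -0.62 ± 0.16 (limma adjusted p = 0.0412), 0 rose and 16 did not pass, beside 6.11% of probe sets that rose and 4.00% that fell. That call was lost without hour 1, 6, 7, 11 or 12, each left out alone.

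Within the listed hours no member passed the test of a linear change, and the fitted changes were below 0 in 12 of the 17 testis genes, in EbpII and in 2 of the 7 gland genes. The fit has 5 arrays and 3 residual degrees of freedom, and changes are given from hour 2 to hour 10. Of the 25 members 0 passed in limma, beside 0.319% of 11269 probe sets, and 14 had an unadjusted p under 0.05 (4 higher, 10 lower), as did 12.8% of all probe sets. The fitted changes ran from -0.24 to 0.70 with a median of 0.17 in the 7 gland genes, and from -0.90 to 0.27 with a median of -0.33 in the 17 testis genes. The median over all probe sets was 0.06. These arrays were picked for the level of gland transcripts, and the pattern within them had been seen before the fit was set up.

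EbpII had the lowest fitted change, -1.81 ± 0.31 (SE, limma adjusted p = 0.0707). Among the sperm tail genes the values were -0.90 ± 0.13 for Mst84Dd (limma adjusted p = 0.0532), -0.62 ± 0.10 for Mst84Da (limma adjusted p = 0.0579) and -0.75 ± 0.16 for Mst87F (limma adjusted p = 0.122). For ocn it was -0.66 ± 0.11 (limma adjusted p = 0.0648). None of these passed with the deposited scaling. After quantile normalization all 5 fell, and after median normalization all but Mst87F did, while 0 members rose. Among all probe sets 0.382% then rose and 0.985% fell with quantile normalization, and 0.267% rose and 0.703% fell with median normalization, against 0.124% and 0.195% with the deposited scaling. A trended and robust variance model on the deposited scaling called Mst84Dd and ocn, both lower, beside 0.266% of probe sets that rose and 0.453% that fell.

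The other testis genes had fitted changes of -0.43 for Mst98Cb and for bol, -0.42 for Mst84Dc and -0.33 for Mst84Db. The changes of dj, -0.44, and of Mst77F, -0.27, were cut short by the floor, since both genes were under it at hours 9 and 10. Under a floor at the 10th percentile dj fell by 1.07 (limma adjusted p = 0.0453). Changes were near 0 in sa, janB, aly and nht, and 0.16, 0.23 and 0.27 in betaTub85D, mia and Mst98Ca. Among the gland genes, Acp95EF had a change of 0.70 ± 0.26 (limma adjusted p = 0.340), Mst57Dc of 0.40, Acp62F of 0.31 and SP of 0.17. Acp36DE and Mst57Da were at 0.02 and -0.04, and Acp32CD at -0.24. Gland genes therefore lay on both sides of 0, and most testis members below it. Among testis genes outside the 40 names, listed by textbook knowledge, the median change of the 32 tested was 0.01, and among 16 other seminal fluid genes it was 0.07. In limma 0 genes of either list passed, beside 0.319% of all probe sets. An unadjusted p under 0.05 was found in 1 higher and 4 lower of the 32 testis genes. It was also found in 1 higher and 1 lower of the 16 seminal fluid genes, and in 12.8% of all probe sets, so these counts are near that share. Only 8 of the 33 other testis genes and 5 of the 16 seminal fluid genes that met the filter had no overlap. Both medians thus rest mostly on genes that overlapped. Of those without overlap, S-Lap7, soti and S-Lap8 of the testis had changes of -0.57, -0.29 and -0.27. The seminal fluid genes Acp53C14b, CG17575 and CG17097 had 0.30, 0.12 and 0.11. Changes of the remaining genes without overlap are not given here.

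**Figure D3:**
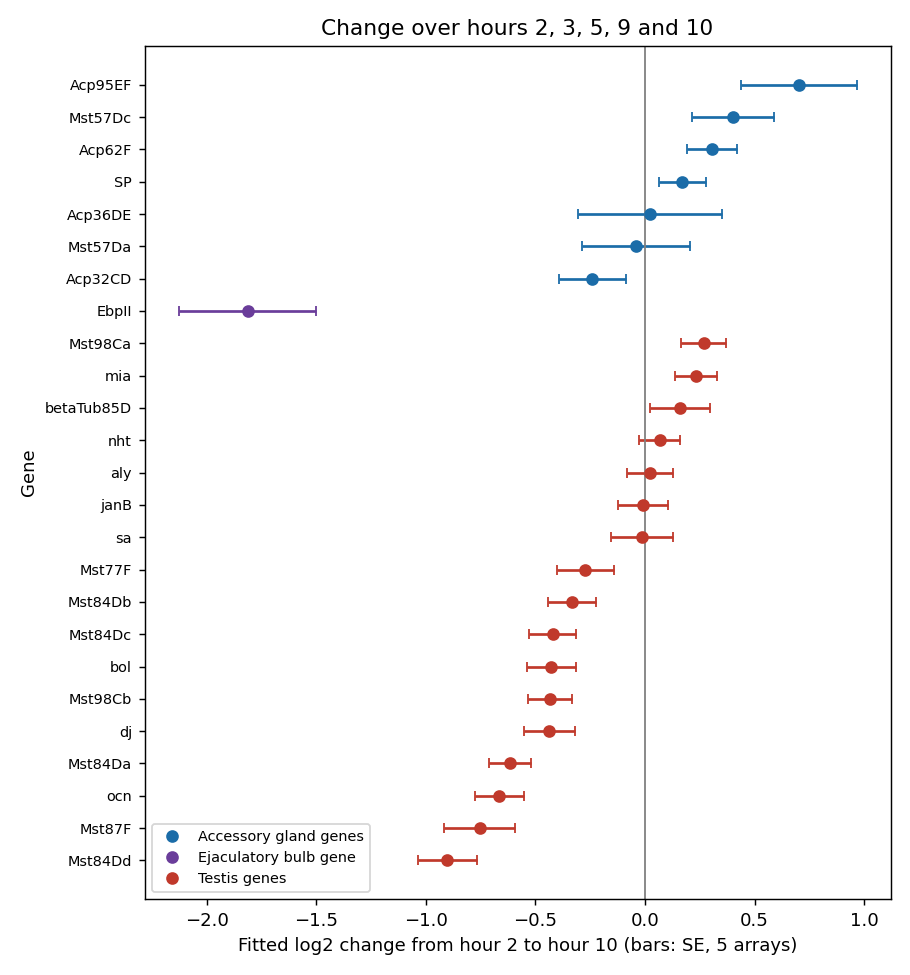
Fitted log2 change from hour 2 to hour 10 in the 25 members, from the limma fit over the 5 listed hours; bars are 1 SE. EbpII is at -1.81, Mst84Dd at -0.90 and Acp95EF at 0.70, and no member passed the adjusted test.

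The order of the arrays gives the same description without a line. Hours 2, 3 and 5 all lay above hours 9 and 10 in 10 of the 17 testis genes, in EbpII and in 0 of the 7 gland genes. The 10 are the 4 Mst84D genes, Mst87F, Mst98Cb, ocn, dj, Mst77F and bol. Of these, bol overlapped between listed and other hours and also fell within the other hours, by -0.62. The reverse order held in SP, mia and Mst98Ca. Of all 11269 probe sets, 9.35% had the first order and 21.0% the reverse. This order was chosen after the values were seen.

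Hours 2, 3 and 5 are called early and hours 9 and 10 late. Because many probe sets kept a signal at the other hours, the excess of a listed array over the mean of the 7 other hours was also taken, on the linear scale and after the values were seen. The mean excess at hours 9 and 10 was 30.8% of that at hours 2, 3 and 5 for EbpII. Over the 8 testis genes without overlap it was 46.4% to 107%, with a median of 51.8%, and 7 of the 8 were under 100%. All but ocn and janB of the 8 are of the protein family of Mst84D and Mst87F, so they are not 8 unrelated genes. Over the 6 gland genes without overlap it was 79.1% to 127%, with a median of 98.5%, and 3 of the 6 were under 100%.

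Within the testis genes the late share was 46.4% in Mst98Cb, 50.3% in Mst84Da, 50.7% in Mst84Dd, 51.8% in Mst87F and 51.9% in Mst84Dc. It was 56.6% in ocn, 65.2% in Mst84Db and 107% in janB. Within the gland genes it was 79.1% in Acp36DE, 79.2% in Acp32CD and 84.3% in Mst57Da. It was 113% in SP, 126% in Mst57Dc and 127% in Acp95EF. Apart from janB, the late shares of the testis genes were all under those of the gland genes. Hour 10 had the lowest excess in 8 of 8 testis genes, and hour 2 in 5 of 6 gland genes.

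**Figure D4:**
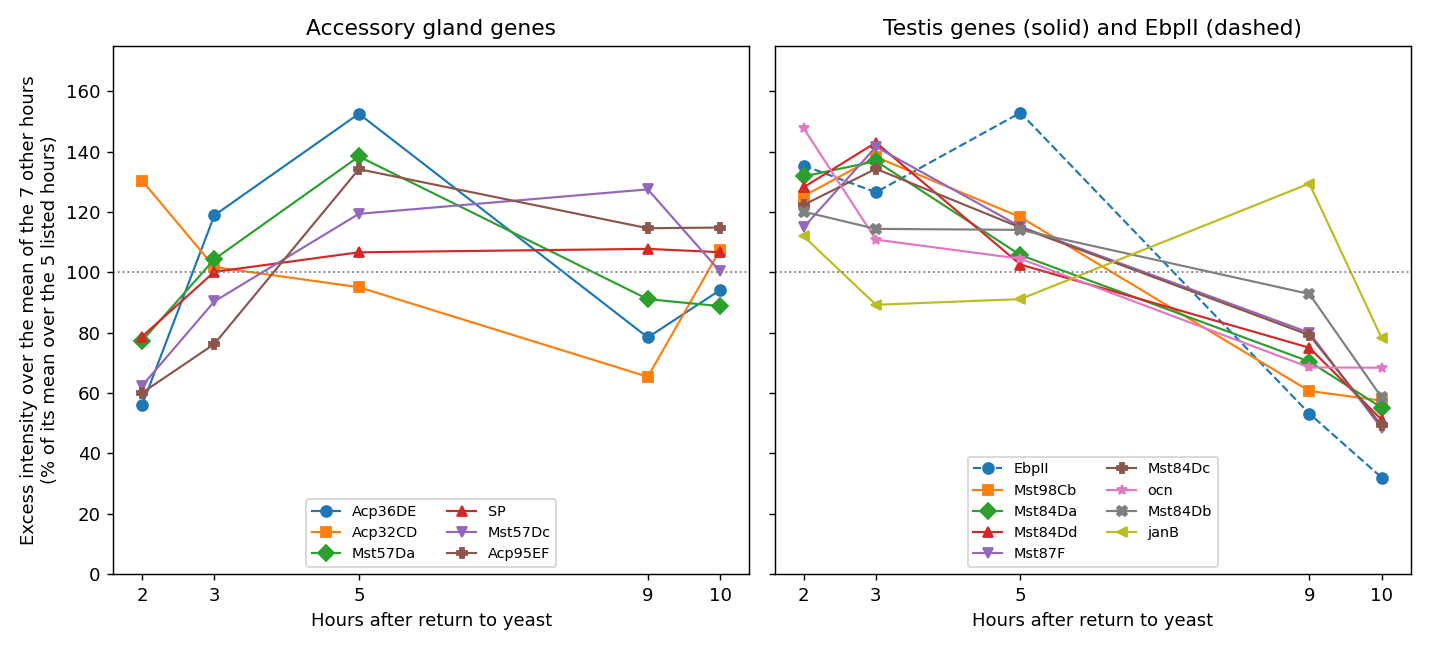
Excess intensity over the mean of the 7 other hours, as a percentage of each gene's own mean excess over the 5 listed hours (dotted line at 100%), against hours after return to yeast, for the 6 gland genes (left) and for the 8 testis genes and EbpII (right). The 8 testis genes and EbpII are all under 100% at hour 10, and 5 of the 6 gland genes are under 100% at hour 2.

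The mean log2 intensity of the 6 gland genes minus that of the 8 testis genes was -0.88, -0.61, -0.21, -0.25 and -0.02 at hours 2, 3, 5, 9 and 10. At the other hours it was between -1.09 and -0.95, values that the floor sets in part: Acp95EF, Mst57Dc and Acp32CD were under it on all 7 of those arrays and Acp36DE on 5. The size of this difference depends on the probes, and only its change between arrays is described. Over the listed hours a line gave a change of 0.68, which was 0.50 without hour 2 and 0.80 without hour 9. Taken on log2 of the excess over the other hours it was 1.25.

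Other male genes, listed by textbook knowledge, were separated in part. Of 50 other seminal fluid genes 22 had a probe set of their own and 16 met the filter, and 5 of those had no overlap, beside 1.74% of all probe sets. Their median difference was 0.17, from -0.24 to 0.64, with Acp53C14b at 0.64 or more, CG17097 at 0.55 and CG17575 at 0.33. Of 33 other testis genes that met it 8 had no overlap. The median of the 33 was 0.09, from -0.38 to 0.80, with the sperm leucyl aminopeptidases S-Lap7 at 0.80 and S-Lap8 at 0.47 and with soti, which acts in the making of individual sperm, at 0.62. None of the 12 Y chromosome fertility genes had a probe set of its own.

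Another ejaculatory bulb gene, Ebp, resembled EbpII. It read 194, 152, 253, 100.4 and 60.4 at the listed hours and 31.7 to 37.7 at the others, a difference of at least 1.24. Its fitted change within the listed hours was -1.49 ± 0.41 (SE) and did not pass (limma adjusted p = 0.202). The 2 further genes of that list overlapped: EbpIII, at 0.02, and the glucose dehydrogenase gene Gld, which the ejaculatory duct also expresses, at 0.09.

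Female transcripts were present on every array. The summed intensity of 23 egg and yolk genes was 7359 to 13708 at the listed hours and 7689 to 23342 at the others. Of the 22 that met the filter 0 were free of overlap, close to the shares of all probe sets, 1.74% above and 0.302% below. The yolk protein genes had the largest differences in size, -0.73 for Yp1, -0.57 for Yp2 and -0.57 for Yp3. Within the listed hours 3 of the 22 egg and yolk genes rose and 0 fell, beside 0.124% and 0.195% of all probe sets. They were those yolk protein genes, Yp1 by 1.94 ± 0.14 (SE, limma adjusted p = 0.0127). Of the 5 spermatheca and female tract genes that met the filter and of the 2 male somatic genes, 0 were free of overlap, again close to the shares of all probe sets. The differences were -0.23 for Send1, -0.14 for CG32834 and -0.08 for CG9897 of the first list, and -0.11 for Obp99b and 0.06 for msl-2 of the second. Send1 and CG32834 also rose over the 12 arrays, by 0.78 and 0.65 (limma adjusted p = 0.00798 and 0.000667).

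The arrays were alike in median intensity, 114 to 120.3, and in the share of values at the floor, 18.7% to 20.9%. RNA quality was read from control transcripts that have probe sets at both ends, as log2 of the 3' end minus log2 of the 5' end. For actin it was 0.93, 1.10, 0.95, 0.80 and 0.74 at hours 2, 3, 5, 9 and 10, and 0.69 to 1.13 at the other hours. For GAPDH it was 2.32 at hour 10, against 1.33 to 1.80 on the remaining arrays. For eIF4A it was 1.37 at hour 10, within the 1.16 to 1.74 of all arrays. The part of these measures, and of the yolk protein genes, in the early to late pattern of the testis genes was not tested. Hour cannot be told apart from time of day, age or the order of handling.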

How the data were processed

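Per the labels, the authors used Trizol for total RNA and dChip, with an invariant set of probes, for normalization. The version, background model and masking were not given in the sources used here. Linear intensities, 1 column per array, were analysed as deposited, without further scaling. Of 14010 probe sets 44 were controls. Values under the 20th percentile (57.2) were set to that floor before log2 of the deposited intensities. The file has no detection calls, and the number of arrays limits the precision.

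Genes came from the platform annotation (12443 fly probe sets with 1 symbol, 327 with several, 1196 unnamed here). All 40 names were found in RefSeq's fly genes (Release 6 plus ISO1 MT), used for names and neighbours only.

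Slopes on hour were fitted with limma 3.58.1 in R 4.3.3, with Benjamini-Hochberg adjustment over every probe set that exceeded the floor on 3 or more of the fitted arrays (11586, 11269 and 11264 for 12, 5 and 7 arrays) and a threshold of 0.05. The fit was tested on simulated data. Listed hours, members, lists and tests were chosen with earlier results of these data known. Every member with a probe set of its own is named. Of each other list, the 3 genes with the largest difference are named, with further testis genes where levels or order at the listed hours are given. Of genes with several probe sets the brightest was counted. Alternatives were other scalings, floors, filters and variance models, log2 of hour, the mean over probe sets and each hour left out.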

Additional observations from a re-analysis of the deposited data

How the results depend on the processing

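With 1 array an hour, 3 residual degrees of freedom in the listed hours and no repeat of any hour, a change seen on 1 array has no check. The count of 15 of 25 genes without overlap ran from 11 of 18 (floor at the 40th percentile) to 19 of 29 (floor at the 10th). The number of genes that met the filter changed with the floor. When each hour was left out the count ran from 15 to 16. With the floor at the 10th percentile the median difference was 1.01 for gland and 0.52 for testis genes, and a floor at the 40th percentile gave 0.91 for gland genes; leaving out each hour gave 1.18 to 1.26 and 0.24 to 0.30. Within the listed hours the 0 calls became 5 with quantile normalization, 4 with median normalization, 1 with the floor at the 10th percentile (dj, -1.07) and 2 with a trended and robust variance model (Mst84Dd and ocn). With each hour left out it was 0, which shows no stability, since those fits of 4 arrays called 0 to 6 of all probe sets. Within the other hours the 1 call, bol, became 0 with no filter and with the robust model, and ran from 0 to 1 with each hour left out. Over 12 arrays bol was the 1 call under every alternative run. Taken on the excess over the other hours, which was added after seeing the data, the gland minus testis change was 1.25 in place of 0.68. No paired analysis was possible because each hour has 1 array and the labels give no replicate numbers.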
